A study of Mus musculus with 8 samples.

Results

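The epidermal differentiation complex is a run of genes on mouse chromosome 3 that code for proteins of the cornified layer. The genes described here were those of the count table whose symbol starts with Sprr or Lce, together with Flg, Flg2, Hrnr, Rptn, Tchh, Tchhl1, Lor, Ivl, Kprp, Crct1, Lelp1 and Smcp. The rule found 50 genes among the 46983 gene identifiers of the table. Of these, 48 were annotated as protein-coding and the other 2 (Sprr2c-ps and Sprr2g) as pseudogenes. They lay between positions 92080271 and 93471980 of chromosome 3 (GRCm38), with Lor at one end and Tchhl1 at the other. A total of 45 of the 50 passed the filter on low counts and were tested, out of 15638 tested genes.

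RNA was sequenced from tail epidermis of 8 mice aged 8 weeks, to ask what the epidermis does without NIPP1, a nuclear partner of the phosphatase PP1 and the product of Ppp1r8. The 4 SKO mice carried K14-Cre/+ with Ppp1r8 fl/-, that is, 1 floxed and 1 null allele. The 4 CTR mice carried K14-Cre/+ with Ppp1r8 fl/+, so that they too had the Cre transgene and 1 floxed allele. The strain combined the transgene Tg(KRT14-cre)1Amc/J with the alleles Ppp1r8tm1Ave and Ppp1r8tm1.1Itl. The keratin 14 promoter drives Cre in basal keratinocytes and their descendants, hair follicle keratinocytes included, and not in the other cells of the epidermal sheet. The labels gave neither sex nor litter. They mentioned no sorting, so each library could hold any cell that stayed with the sheet after dispase. Each library was 1 mouse.

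Keratinocytes that leave the basal layer build the cornified envelope, a shell of proteins crosslinked by transglutaminases under the plasma membrane. Involucrin (Ivl) is an early scaffold, loricrin (Lor) is the main later component, small proline-rich proteins (Sprr) act as cross-bridging proteins, and late cornified envelope proteins (Lce) are added late. The fused S100-type proteins combine a calcium-binding S100-like part with long repeats. They include filaggrin (Flg), which bundles keratin filaments and is later broken down to moisture-holding compounds, and trichohyalin (Tchh), a structural protein of the inner root sheath and the hair medulla. In human skin, genes of the LCE3 group are known for low levels in normal epidermis and high levels in psoriatic or injured epidermis.

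The promoters of 7 genes are shown because they set genes that rose beside genes of the same subfamily that were not called, and because they show how like the Lce3 genes are to each other. Each is the 250 bases upstream of the start of the gene in RefSeq (GRCm38.p6), written 5′ to 3′ on the strand of the gene. Capitals mark matches on either strand to TGANTCA, which AP-1 factors read, or to TATAAA, the core promoter element bound by the TATA-binding protein. Sprr2d (chr3:92338890-92339139, plus strand) and Sprr2i (chr3:92407741-92407990, plus strand) rose. Sprr2b (chr3:92316455-92316704, plus strand) and Sprr2h (chr3:92385435-92385684, plus strand) were not called. Lce3c (chr3:92944236-92944485, plus strand), Lce3e (chr3:92966811-92967060, plus strand) and Lce3a (chr3:92926231-92926480, minus strand) rose.
Sprr2d: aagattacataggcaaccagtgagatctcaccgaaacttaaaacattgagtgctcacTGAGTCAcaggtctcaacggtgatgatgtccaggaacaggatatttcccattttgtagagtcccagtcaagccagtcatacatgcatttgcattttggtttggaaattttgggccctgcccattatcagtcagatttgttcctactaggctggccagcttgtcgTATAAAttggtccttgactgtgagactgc
Sprr2i: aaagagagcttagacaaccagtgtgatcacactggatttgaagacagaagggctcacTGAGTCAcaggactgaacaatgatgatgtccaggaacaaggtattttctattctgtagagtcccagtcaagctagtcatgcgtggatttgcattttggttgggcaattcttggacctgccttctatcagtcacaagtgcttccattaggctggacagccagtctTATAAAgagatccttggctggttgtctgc
Sprr2b: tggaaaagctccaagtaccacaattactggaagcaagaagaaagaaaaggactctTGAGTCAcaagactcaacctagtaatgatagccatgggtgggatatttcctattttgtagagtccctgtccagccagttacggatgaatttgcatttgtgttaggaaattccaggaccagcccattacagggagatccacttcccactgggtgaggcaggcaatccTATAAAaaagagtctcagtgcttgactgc
Sprr2h: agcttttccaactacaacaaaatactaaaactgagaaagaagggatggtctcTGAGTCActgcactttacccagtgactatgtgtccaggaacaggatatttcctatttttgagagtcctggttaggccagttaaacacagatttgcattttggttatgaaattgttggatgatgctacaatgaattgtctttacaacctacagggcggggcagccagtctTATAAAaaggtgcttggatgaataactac
Lce3c: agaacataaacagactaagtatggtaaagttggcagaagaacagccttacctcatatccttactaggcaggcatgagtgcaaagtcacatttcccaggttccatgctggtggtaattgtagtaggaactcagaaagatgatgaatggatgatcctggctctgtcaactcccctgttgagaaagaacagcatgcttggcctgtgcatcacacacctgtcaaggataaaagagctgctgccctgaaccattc
Lce3e: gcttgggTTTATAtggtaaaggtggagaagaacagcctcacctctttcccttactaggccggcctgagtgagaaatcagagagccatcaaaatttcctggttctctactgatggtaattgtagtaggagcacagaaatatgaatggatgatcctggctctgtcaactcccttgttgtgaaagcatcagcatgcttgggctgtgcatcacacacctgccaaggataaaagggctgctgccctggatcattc
Lce3a: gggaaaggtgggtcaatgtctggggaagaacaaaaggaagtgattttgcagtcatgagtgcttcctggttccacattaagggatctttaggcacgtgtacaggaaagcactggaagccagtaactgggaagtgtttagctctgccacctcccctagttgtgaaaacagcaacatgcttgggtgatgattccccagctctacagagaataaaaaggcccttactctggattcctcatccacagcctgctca

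The 4 Sprr2 promoters held the same letters at almost the same places whether or not the gene was called. Counted in bases from the start of the gene, with upstream positions negative, the TGANTCA match began at -193 in Sprr2d and in Sprr2i, at -195 in Sprr2b and at -198 in Sprr2h. The TATAAA match began at -29 in all 4. A search of the 44 member genes that had a RefSeq promoter found TGANTCA in 15 of them, against 6.75% of 32851 promoters of the same length. It was present in 7 of 10 Sprr2 promoters, 0 of 13 Lce1 promoters and 0 of 6 Lce3 promoters. By test result, the match was present in 6 of 17 members that were higher in SKO, in 1 of 3 that were lower and in 8 of 20 that were not called. TATAAA was found in 19 of 44 members, against 12.4% of all promoters, and in 8 of 17 higher, 0 of 3 lower and 10 of 20 uncalled members. The letters TTCNNNGAA, read by STAT factors, were found in 3 of 44 members and in 0 of the 17 that were higher, against 7.02% of all promoters. Both strands were searched for each motif whether or not it overlapped another, and a match describes letters only. Each member was counted with 1 promoter, whereas the 32851 promoters were not reduced to 1 per gene, so these shares may differ in unit.

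Promoters within a subfamily ranged widely in sequence likeness. Over these 250 bases Sprr2d was 77.5% identical to Sprr2i, 65.4% to Sprr2b and 65.0% to Sprr2h. The promoter of Sprr2d was most like that of Sprr2e, which also rose, at 89.3%. Among the Lce3 genes, Lce3c and Lce3e were 79.0% identical, whereas Lce3a and Lce3e were 55.1% identical.

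Levels below are CPM, that is, counts divided by the library total after TMM scaling. Library totals were 18649079 to 20500885 counts in SKO and 16696212 to 21571935 counts in CTR. A gene was called when edgeR's quasi-likelihood test gave a Benjamini-Hochberg adjusted p under 0.05 over all tested genes. Ppp1r8 itself (chromosome 4) was at 35.4, 28.4, 34.3 and 47.4 CPM in SKO 1 to 4, against 40.4, 34.7, 41.6 and 35.0 CPM in CTR 1 to 4. Its groups overlapped, and since the labels do not say which exons the alleles lack, a count over the whole gene does not check the deletion. Xist was at 330.4, 436, 574 and 337 CPM in SKO 1 to 4 and at 706, 994, 819 and 647 CPM in CTR 1 to 4, so that its groups did not overlap. The 4 Y-linked genes examined had 0 counts in every library.

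Of the 45 tested members, 18 were higher in SKO, 3 were lower and 24 were not called. Over all tested genes, 11.5% were called higher, 12.2% lower and 23.7% in either direction, so the share of members called higher (40.0%) stood above the background and the number called lower did not. The median log2 fold change (SKO over CTR) of the tested members was 0.46, against -0.00 over all tested genes, with a range of -3.01 to 3.30. The log2 fold change was positive in 38 of the 45. SKO libraries all lay above all CTR libraries in 15 members (33.3%), against 12.8% of all tested genes, and all below in 3, against 13.3%. The 18 higher, the 38 positive and the 15 non-overlapping members all include Lce3a and Lce3b. These genes passed the low-count filter through SKO alone, so their direction and lack of overlap were set by how they entered the tested set. Lce3d, Lce3e and Sprr2f, with 3, 1 and 2 CTR libraries over the minimum, also needed SKO libraries to pass. Lce3d and Lce3e are among the 18, Lce3e is among the 15, and all of them are among the 38. The members are neighbours in 1 locus, and several are near-copies of each other, so they are not independent of each other. In a bulk sheet, fewer cells of a type and less RNA per cell cannot be told apart, and this holds for every difference below. When the Xist level was added to the model as a further term, 0 of the 21 called members stayed called (adjusted p = 0.0524 to 0.969), and 77 genes were called in all, against 3700 without it. All 21 kept their sign under that term, but 5 of them moved by over 1.5-fold. The log2 fold change of Tchh became -0.08, that of Tchhl1 -1.07, that of Sprr2e 0.50, that of Lce3d 1.06 and that of Lce3b 4.20. Xist and group cannot be told apart in these 8 libraries.

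The filter kept a member only if it was counted well enough in 4 libraries, so a gene silent in one group could pass through the other. Among tested members, 8 had fewer than 4 CTR libraries over the minimum, and Lce3a and Lce3b had none. The 5 members that were not tested were Lelp1, a relative of the late envelope genes, Smcp, which codes for a protein of the sperm mitochondrial capsule, and Sprr2a2, Sprr2c-ps and Sprr3. Summed over 4 libraries a group, Lelp1 had 2 counts in SKO and 2 in CTR. Smcp had 5 counts in SKO and 6 in CTR, and Sprr3, a gene best known from the lining of the mouth and oesophagus, had 3 in SKO and 1 in CTR. Sprr2a2 had 16 counts in SKO and 5 in CTR, and Sprr2c-ps had 19 in SKO and 10 in CTR. No difference can be read at these depths.

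**Figure D1:**
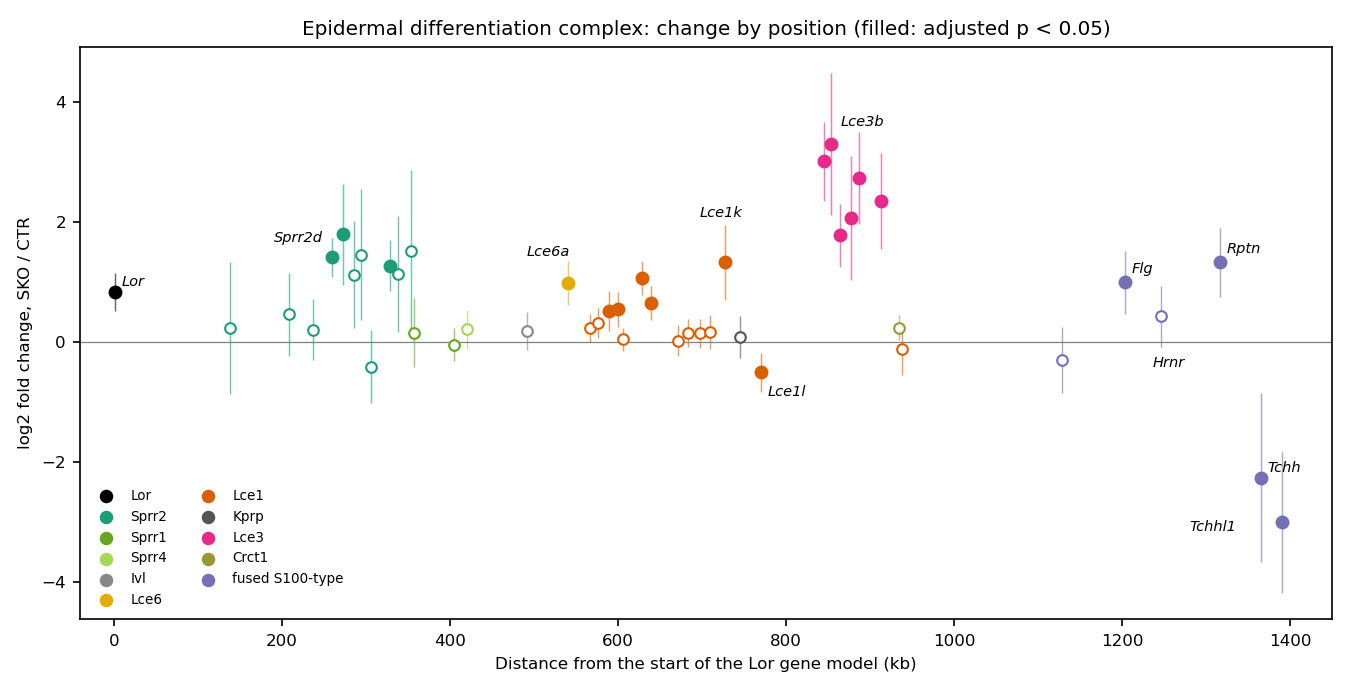
Log2 fold change (SKO over CTR, vertical axis) of the 45 tested members against distance in kb from the start of Lor along chromosome 3, coloured by subfamily, with filled points for called genes and bars for 95% intervals. The Lce3 genes form the highest block (1.78 to 3.30), and Tchh and Tchhl1 at the far end are the lowest points (-2.27 and -3.01).

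By position, the Lce3 genes and the pair Tchh and Tchhl1 formed unbroken runs of calls. Most other calls were mixed with members that were not called. Among them, Sprr2d and Sprr2e, Lce1a2 and Lce1c, and Lce1e and Lce1f were adjacent pairs that rose. The plot of fold change along the locus starts with Lor, which rose, followed by the Sprr2 genes. Of these, the neighbours Sprr2d and Sprr2e rose, as did Sprr2i, and the other tested ones were not called. Sprr1b, Sprr1a, Sprr4 and Ivl came next, and none of them was called. Lce6a and the Lce1 genes held 6 of the calls upward and 1 downward, with uncalled Lce1 genes and uncalled Kprp among them. The 6 Lce3 genes all rose, and Crct1, Lce1m and Flg2 were not called. Flg and Rptn rose, with uncalled Hrnr between them, and the last 2 members, Tchh and Tchhl1, fell. The same stretch of 1.39 Mb held 12 other tested genes, with a median log2 fold change of 0.01. Of these, 1 was higher, 4 were lower and 7 were not called, beside 11.5% higher and 12.2% lower over all tested genes.

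**Figure D2:**
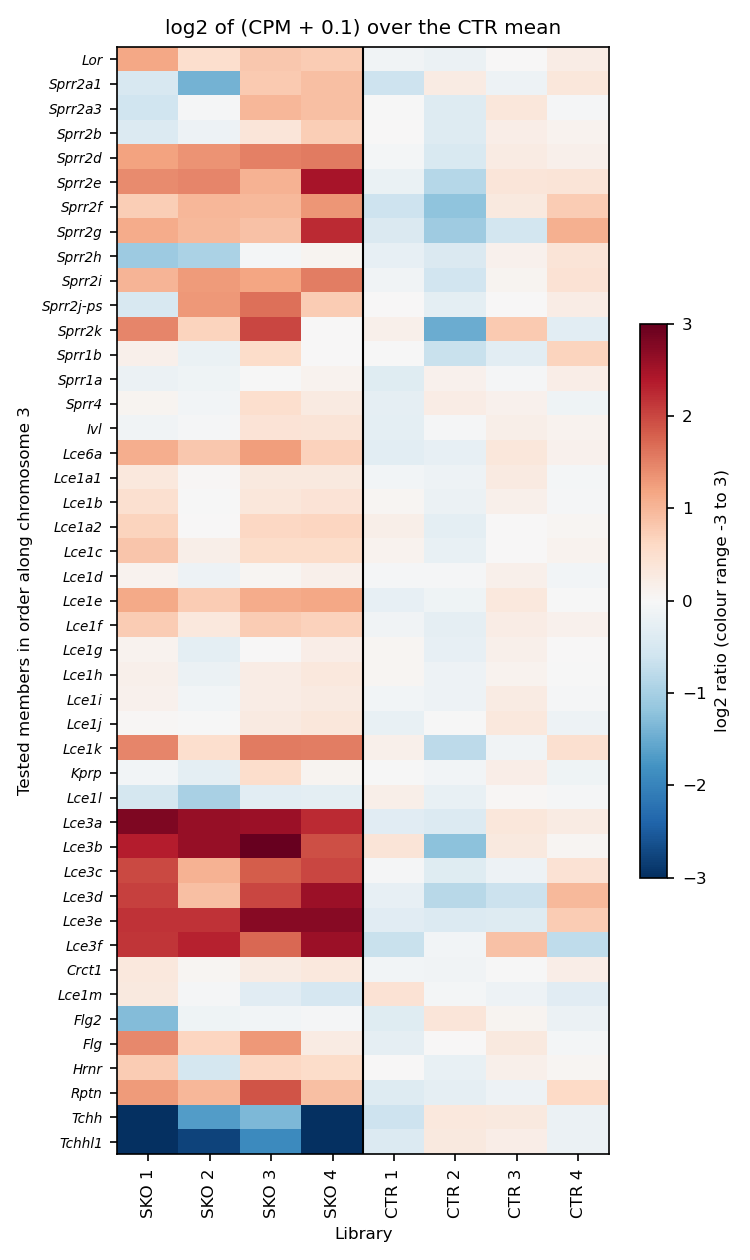
Log2 of CPM plus 0.1 over the CTR mean, for the 45 tested members in chromosome order (rows) in the 4 SKO and 4 CTR libraries (columns); the colour scale stops at -3 and 3. The 6 Lce3 rows are red in all 4 SKO libraries, and the Tchh and Tchhl1 rows are blue in all 4, with SKO 1 and SKO 4 the darkest.

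The SKO libraries were not alike. The map of library ratios shows this as lighter cells in SKO 2, which was the lowest of the SKO libraries in 23 of the 45 members and the highest in 0. It was the lowest in 13 of the 14 Lce1 genes. SKO 4 was the highest in 22 of the 45 members and in 8 of the 11 tested Sprr2 genes, whereas SKO 1 was the lowest in 7 of those 11. Together the 50 members took 1.06% to 1.45% of the counts in SKO libraries and 1.07% to 1.28% in CTR libraries. Lor made up 16.3% of the summed member CPM in SKO and 9.95% in CTR, and Rptn 6.09% in SKO and 2.64% in CTR. Tchh made up 3.91% of it in SKO and 20.4% in CTR.

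Loricrin, the main protein of the mature envelope, rose. Lor was at 2669, 1692, 2091 and 2012 CPM in SKO 1 to 4, against 1108, 1059, 1191 and 1394 CPM in CTR 1 to 4. The lowest SKO library stood above the highest CTR library. The means were 2116 ± 407 CPM in SKO and 1188 ± 148 CPM in CTR (SD, n = 4 each), a 1.78-fold difference (log2 0.83, SE 0.14, adjusted p = 0.00345). Per kilobase of exon, Lor ranked 2nd of the members in SKO (1189 RPKM) and 3rd in CTR (668 RPKM).

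Involucrin, the early scaffold, was not called. Ivl was at 45.6, 48.2, 65.3 and 64.6 CPM in SKO 1 to 4 and at 40.2, 47.5, 55.6 and 53.1 CPM in CTR 1 to 4. The groups overlapped, and the 95% interval of its log2 fold change ran from -0.13 to 0.51 (adjusted p = 0.362). Kprp, which codes for a proline-rich protein of keratinocytes, was at 551, 474, 838 and 618 CPM in SKO 1 to 4, against 582, 553, 666 and 537 CPM in CTR 1 to 4. Its log2 fold change was 0.09, with an interval of -0.27 to 0.44 (adjusted p = 0.726). Crct1, a small cysteine-rich gene next to the Lce3 block, was at 515, 432, 492 and 517 CPM in SKO 1 to 4, against 392, 384, 410.1 and 475 CPM in CTR 1 to 4. Its log2 fold change of 0.24 had an interval of 0.03 to 0.44 but missed the threshold (adjusted p = 0.0941).

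All 6 Lce3 genes rose, from low levels in CTR. Their summed level was 34.9 ± 7.30 CPM in SKO (24.6 to 41.6) and 8.53 ± 2.20 CPM in CTR (6.35 to 11.5), a ratio of 4.09 with no overlap. The median log2 fold change of the 6 was 2.55. In 5 of them the groups did not overlap, and the exception was Lce3d. Over all tested genes, 11.5% were called higher, and 12.8% had every SKO library above every CTR library. Lce3a and Lce3b passed the low-count filter through SKO alone, so their direction and lack of overlap were set by how they entered the tested set. Lce3d and Lce3e also needed SKO libraries to pass it.

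Lce3c was the most abundant of them per kilobase, at 35.6 RPKM in SKO and 10.3 RPKM in CTR. It was at 23.6, 12.2, 21.0 and 23.9 CPM in SKO 1 to 4, against 5.69, 4.52, 5.26 and 7.96 CPM in CTR 1 to 4. The fitted difference was 3.43-fold (log2 1.78, SE 0.24, adjusted p = 0.00113). Lce3f was at 4.88, 5.51, 3.61 and 6.62 CPM in SKO 1 to 4, against 0.615, 0.962, 1.98 and 0.565 CPM in CTR 1 to 4, a 5.11-fold difference (adjusted p = 0.00223). Both were above every CTR library in every SKO library.

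Lce3e was at 1.94, 1.92, 2.90 and 2.91 CPM in SKO 1 to 4, against 0.256, 0.241, 0.247 and 0.659 CPM in CTR 1 to 4. It had 188 counts in SKO and 28 in CTR, and CTR 4 was the only CTR library over the filter's minimum. The difference of Lce3e was 6.66-fold (log2 2.74, SE 0.35, adjusted p = 0.000988). Lce3d was at 4.19, 1.82, 4.06 and 5.98 CPM in SKO 1 to 4 and at 0.768, 0.481, 0.557 and 1.93 CPM in CTR 1 to 4. SKO 2 lay below CTR 4, the one point of overlap in the block. The difference was 4.20-fold (log2 2.07, SE 0.46, adjusted p = 0.0114), and it was 2.72 on the log2 scale with CTR 4 left out.

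Lce3a and Lce3b were barely counted in CTR. Lce3a was at 2.15, 1.87, 1.80 and 1.43 CPM in SKO 1 to 4, against 0.154, 0.144, 0.309 and 0.282 CPM in CTR 1 to 4. That was 141 counts in the SKO libraries and 17 in the CTR libraries, an 8.06-fold difference (log2 3.01, SE 0.30, adjusted p = 0.00031). Lce3b was at 1.10, 1.31, 2.10 and 0.794 CPM in SKO 1 to 4, against 0.205, 0, 0.186 and 0.141 CPM in CTR 1 to 4. It had 104 counts in SKO and 10 in CTR, and its difference was 9.87-fold (log2 3.30, SE 0.53, adjusted p = 0.00279). A library's floor of 3 counts was 0.141 to 0.186 CPM, so CTR values of both genes were at or near the limit of detection.

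Reads of the Lce3 genes could be split between copies. The share of 75-base windows of their transcripts also present in a transcript of another gene was 45.6% for Lce3f, 41.1% for Lce3e, 38.6% for Lce3d and 28.0% for Lce3c. It was 9.47% for Lce3a and 6.15% for Lce3b. The first 4 values leave the separate counts of Lce3c to Lce3f uncertain, and, if reads with several matches were dropped, the summed level of the block as well.

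**Figure D3:**
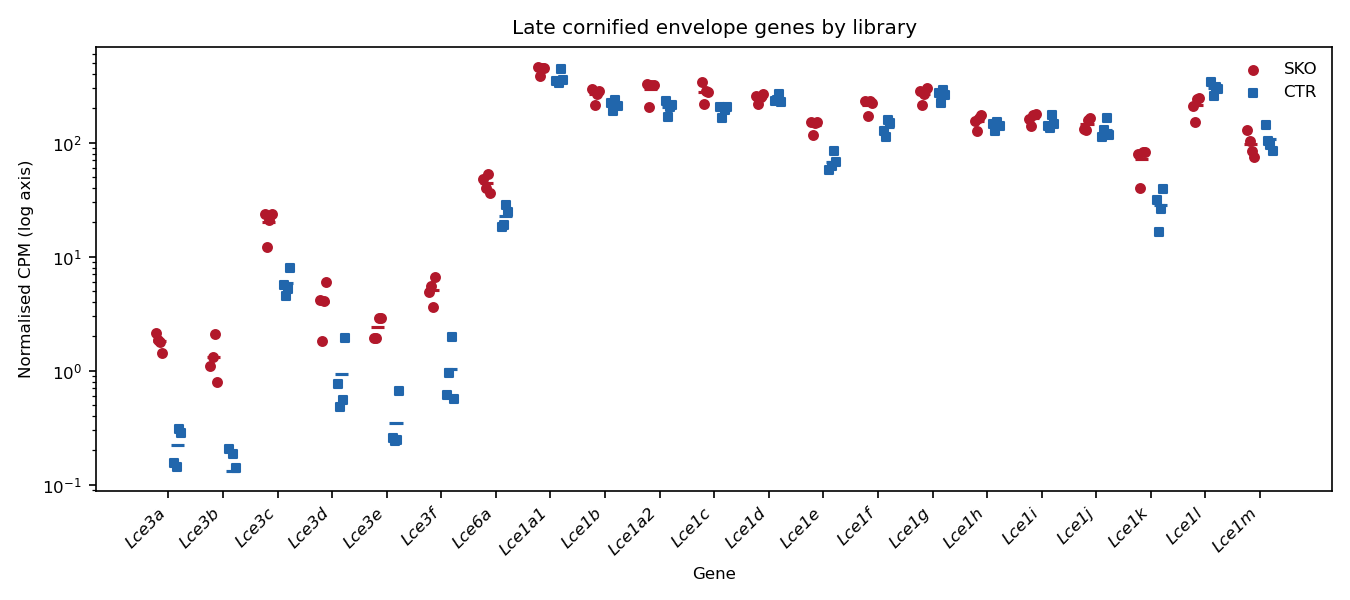
Normalised CPM (log axis) of the Lce genes, with 4 SKO libraries (circles) left of 4 CTR libraries (squares) for each gene and a dash at each group mean; Lce3b in CTR 2 was at 0 and is not drawn. The Lce3 genes sit lowest and separate most (sum 34.9 against 8.53 CPM), while most Lce1 genes overlap and Lce1l lies lower in SKO.

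Lce6a, a single gene between Smcp and the Lce1 block, rose. It was at 48.3, 39.7, 53.6 and 36.5 CPM in SKO 1 to 4, against 18.2, 19.0, 28.5 and 24.5 CPM in CTR 1 to 4. All SKO libraries were above all CTR libraries, at 44.5 ± 7.84 CPM against 22.6 ± 4.86 CPM (SD, n = 4 each). The difference was 1.98-fold (log2 0.98, SE 0.17, adjusted p = 0.0033).

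Most of the 14 Lce1 genes, which lie between Lce6a and the Lce3 block apart from Lce1m, were not called. Of the 14, 5 rose, 1 fell and 8 were not called, with a median log2 fold change of 0.20. The share that rose was 35.7%, against 11.5% of all tested genes, and 12.2% of all tested genes fell. Their summed level was 3002 ± 381 CPM in SKO (2433 to 3228) and 2555 ± 228 CPM in CTR (2265 to 2811), a ratio of 1.17, and the groups overlapped.

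The largest rises of the subfamily were in Lce1k and Lce1e. Lce1k was at 79.3, 40.1, 83.6 and 83.1 CPM in SKO 1 to 4, against 31.5, 16.5, 26.2 and 39.5 CPM in CTR 1 to 4, a 2.51-fold difference (log2 1.33, SE 0.28, adjusted p = 0.00875). SKO 2 was only just above CTR 4. Lce1e was at 151, 116, 148 and 153 CPM in SKO 1 to 4, against 57.5, 62.4, 84.6 and 67.9 CPM in CTR 1 to 4, a 2.09-fold difference (log2 1.06, SE 0.13, adjusted p = 0.000855). Its groups were well apart. Lce1e shared 13.5% of its windows with other Lce1 genes, the highest share among them.

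Lce1f, Lce1c and Lce1a2 rose by less. Lce1f was at 232, 172, 232 and 222 CPM in SKO 1 to 4, against 128, 113, 159.6 and 149 CPM in CTR 1 to 4 (log2 fold change 0.64, adjusted p = 0.00679). Lce1c was at 342, 218, 283 and 280.4 CPM in SKO 1 to 4, against 206, 165, 193 and 206 CPM in CTR 1 to 4 (log2 fold change 0.55, adjusted p = 0.0147). For both, SKO 2 was the lowest SKO library and still above the CTR libraries. Lce1a2 was at 329, 206, 318 and 320.5 CPM in SKO 1 to 4, against 233, 169, 207 and 214 CPM in CTR 1 to 4. Here SKO 2 lay among the CTR libraries, and the call (log2 fold change 0.51, adjusted p = 0.0353) was lost without SKO 1, SKO 3, SKO 4, CTR 2, CTR 3 or CTR 4 (adjusted p = 0.0613 to 0.092).

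Lce1l moved the other way. It was at 210.3, 153, 243 and 246 CPM in SKO 1 to 4, against 344, 259, 312 and 296 CPM in CTR 1 to 4, so that every SKO library was below every CTR library. It fell by 0.50 on the log2 scale (SE 0.15, adjusted p = 0.0323), which is 1.42-fold lower. The call was lost without SKO 1, SKO 2, CTR 1, CTR 3 or CTR 4 (adjusted p = 0.0523 to 0.0862). Lce1l shared 2.01% of its windows with other genes.

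Of the 8 uncalled Lce1 genes, Lce1a1, with the highest level per kilobase of any Lce gene (622 RPKM in SKO and 528 RPKM in CTR), was at 461, 383, 457 and 453 CPM in SKO 1 to 4, against 349.9, 336, 446 and 358 CPM in CTR 1 to 4. Its log2 fold change was 0.23, and SKO 2 lay among the CTR libraries (adjusted p = 0.133). Lce1b, at 0.32, came closest to the threshold (adjusted p = 0.067). Lce1d, Lce1g, Lce1h, Lce1i, Lce1j and Lce1m had log2 fold changes of -0.12 to 0.16 and overlapping groups.

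**Figure D4:**
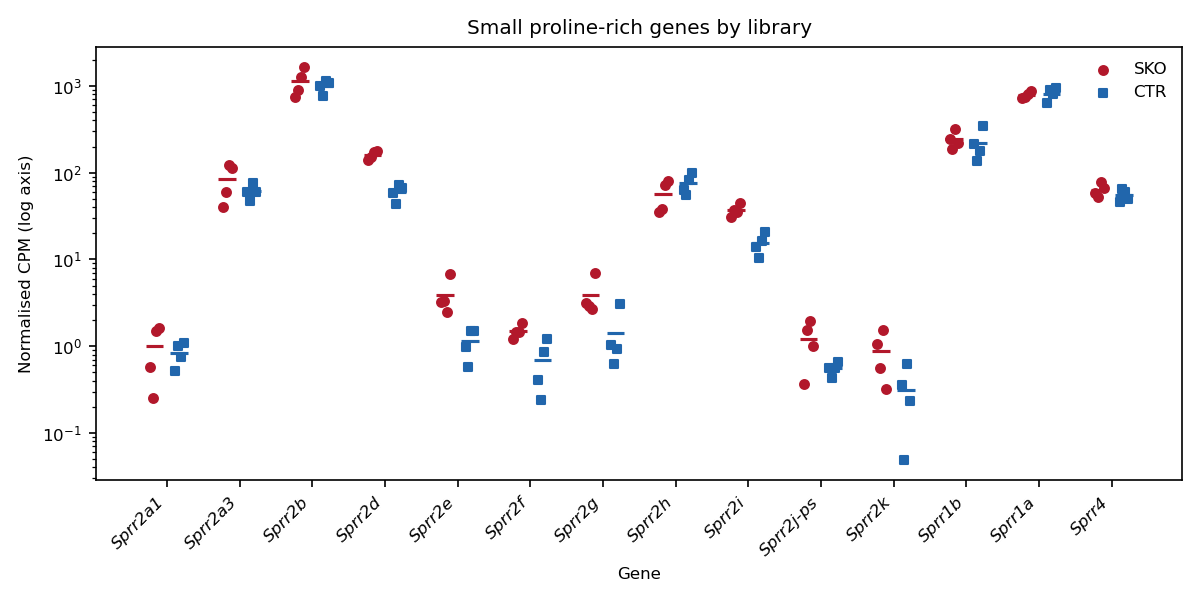
Normalised CPM (log axis) of the 14 tested Sprr genes in chromosome order, with 4 SKO libraries (circles) left of 4 CTR libraries (squares) and a dash at each mean. Sprr2d, Sprr2e and Sprr2i are the 3 genes with no overlap (for Sprr2d, 139 to 177 against 43.7 to 71.7 CPM), while Sprr2b, Sprr1a, Sprr1b and Sprr4 overlap.

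Among the small proline-rich genes, 3 of 11 tested Sprr2 genes rose and 0 fell, and none of Sprr1a, Sprr1b and Sprr4 was called. The share of Sprr2 genes that rose was 27.3%, against 11.5% of all tested genes, and 12.2% of all tested genes fell. The median log2 fold change of the Sprr2 genes was 1.13, with a range of -0.42 to 1.79. The summed Sprr2 level, 1497 ± 497 CPM in SKO (1005 to 2100) and 1211 ± 209 CPM in CTR (922 to 1392), overlapped between groups because Sprr2b made up most of it. The run of 6 neighbours from Sprr2d to Sprr2i, uncalled Sprr2h included, summed to 263 ± 46.9 CPM in SKO (213 to 316) and 154 ± 36.2 CPM in CTR (111 to 192), a ratio of 1.71 with no overlap.

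Sprr2d had the smallest adjusted p of the Sprr genes. It was at 139, 153, 172 and 177 CPM in SKO 1 to 4, against 58.2, 43.7, 71.7 and 67.4 CPM in CTR 1 to 4. The means were 160 ± 17.3 CPM and 60.3 ± 12.4 CPM (SD, n = 4 each), a 2.66-fold difference (log2 1.41, SE 0.15, adjusted p = 0.000402). Sprr2i was at 30.9, 37.2, 34.8 and 44.7 CPM in SKO 1 to 4, against 14.1, 10.3, 16.1 and 20.6 CPM in CTR 1 to 4, a 2.42-fold difference (log2 1.27, SE 0.19, adjusted p = 0.002). In both, all SKO libraries were above all CTR libraries. Sprr2e, at a far lower level, was at 3.20, 3.34, 2.45 and 6.72 CPM in SKO 1 to 4, against 0.973, 0.577, 1.48 and 1.51 CPM in CTR 1 to 4. Its difference was 3.47-fold (log2 1.79, SE 0.38, adjusted p = 0.00888), and SKO 4 was the highest library. At most 6.08% of the windows of these 3 genes were shared with other genes.

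Sprr2b, the most abundant member per kilobase in both groups (1463 RPKM in SKO and 1269 RPKM in CTR), was not called. It was at 751, 889, 1282 and 1667 CPM in SKO 1 to 4, against 1000.02, 763, 1139 and 1077 CPM in CTR 1 to 4. The SKO libraries spread around the CTR libraries on both sides. The 95% interval of its log2 fold change was -0.30 to 0.72 (adjusted p = 0.544). Sprr2h, whose promoter is printed above beside that of Sprr2d, had a log2 fold change of -0.42 with an interval of -1.03 to 0.19 (adjusted p = 0.294), and its SKO libraries ran from 35.1 to 79.3 CPM against 55.8 to 98.4 CPM in CTR.

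The other 6 tested Sprr2 genes missed the threshold. Sprr2f, Sprr2g, Sprr2j-ps and Sprr2k had log2 fold changes of 1.12 to 1.52 at low levels (adjusted p = 0.0556 to 0.098). Sprr2a3 and Sprr2a1 had log2 fold changes of 0.46 and 0.23 (adjusted p = 0.304 and 0.762). Sprr2a1 and Sprr2a2 share nearly all of their sequence with each other or with Sprr2a3 (94.3% and 94.7% of windows), so their separate counts are uncertain. Summed, Sprr2a1 to Sprr2a3 stood at 84.8 CPM in SKO and 61.7 CPM in CTR.

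The Sprr1 genes, induced with keratinocyte stress and terminal differentiation, showed no detectable change. Sprr1a, the more abundant per kilobase, was at 725, 746, 805 and 884 CPM in SKO 1 to 4, against 629, 890.0, 799 and 942 CPM in CTR 1 to 4. Its log2 fold change of -0.04 had an interval of -0.32 to 0.23 (adjusted p = 0.82). Sprr1b had an interval of -0.41 to 0.72 (adjusted p = 0.69). The summed level of both was 1032 ± 94.0 CPM in SKO and 1033 ± 185 CPM in CTR, a ratio of 1.00. Sprr4 was at 58.2, 52.2, 78.7 and 66.3 CPM in SKO 1 to 4, against 45.8, 65.0, 60.2 and 50.2 CPM in CTR 1 to 4, with an interval of -0.11 to 0.53 (adjusted p = 0.317).

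The fused S100-type genes moved in both directions. Of the 6, Flg and Rptn rose, Tchh and Tchhl1 fell, and Hrnr and Flg2 were not called. These counts stand beside 11.5% called higher and 12.2% called lower over all tested genes. With Tchh and Tchhl1 the summed level was 3999 CPM in SKO and 4812 CPM in CTR, a ratio of 0.831. Without them it was 3476 ± 970 CPM in SKO (2172 to 4276) and 2239 ± 237 CPM in CTR (1964 to 2436), a ratio of 1.55 with overlapping groups. Hrnr, Flg and Flg2 held 4764, 9539 and 10647 distinct 75-base windows over 11187, 18829 and 20803 exon bases, so parts of them repeat internally. If reads with several matches were dropped, the levels of these genes and both sums are uncertain.

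Repetin (Rptn), an envelope precursor, was at 765, 629, 1171 and 589.5 CPM in SKO 1 to 4, against 241, 262, 282 and 474 CPM in CTR 1 to 4. The groups did not overlap, although CTR 4 was nearer the SKO libraries than the other CTR libraries were. The difference was 2.51-fold (log2 1.32, SE 0.26, adjusted p = 0.00634). Flg was at 612, 351, 554 and 268 CPM in SKO 1 to 4, against 185, 225, 274 and 215 CPM in CTR 1 to 4. SKO 4 lay just below CTR 3, and the other SKO libraries were above all CTR libraries. The means were 446 ± 163 CPM in SKO and 225 ± 36.7 CPM in CTR (SD, n = 4 each), a 1.99-fold difference (log2 0.99, SE 0.24, adjusted p = 0.015).

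Hornerin (Hrnr), a filaggrin-like protein, was at 2741, 1123, 2478 and 2375 CPM in SKO 1 to 4, against 1633, 1380.3, 1801 and 1680.0 CPM in CTR 1 to 4. SKO 1, SKO 3 and SKO 4 were above all CTR libraries, and SKO 2 was below them all. Its log2 fold change of 0.42 had an interval of -0.09 to 0.94 (adjusted p = 0.205), and the gene was called when SKO 2 was left out. Filaggrin-2 (Flg2) was at 30.8, 69.1, 71.8 and 73.8 CPM in SKO 1 to 4, against 59.1, 96.8, 79.8 and 67.4 CPM in CTR 1 to 4. SKO 1 was well below the rest, and the interval was -0.86 to 0.25 (adjusted p = 0.403).

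**Figure D5:**
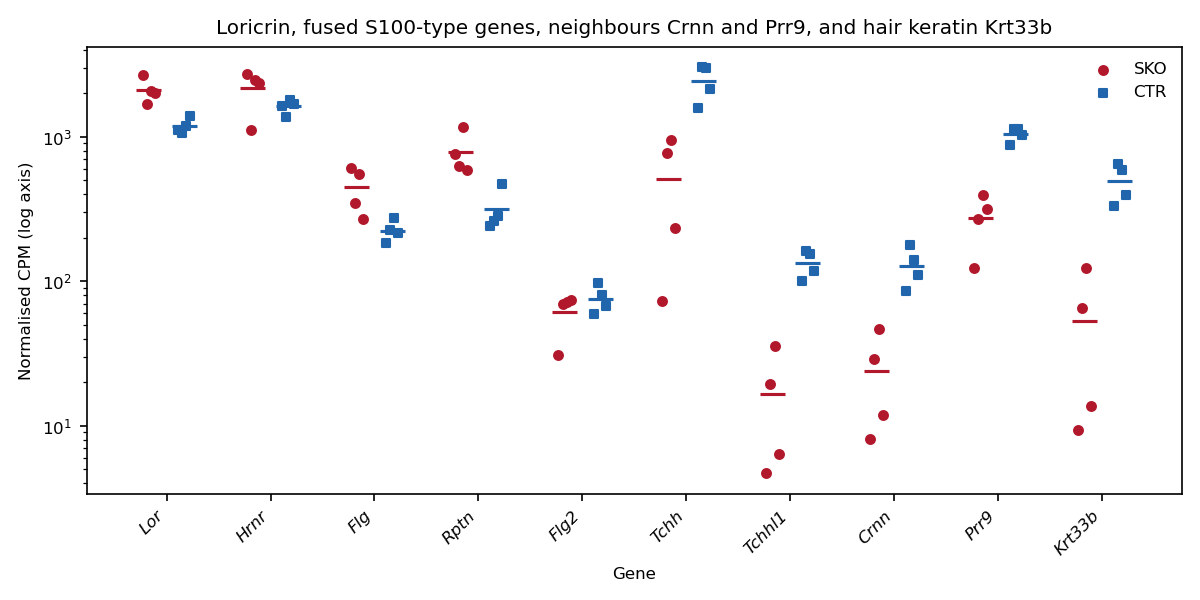
Normalised CPM (log axis) of Lor, the 6 fused S100-type genes, the neighbouring genes Crnn and Prr9, and the hair keratin Krt33b, with 4 SKO libraries (circles) left of 4 CTR libraries (squares) and a dash at each mean. Lor and Rptn are higher in every SKO library than in any CTR library, and Tchh, Tchhl1, Crnn, Prr9 and Krt33b are lower in every SKO library (for Tchh, 73.5 to 951 against 1584 to 3034 CPM).

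Trichohyalin and its neighbour fell, with a wide spread between SKO mice. Tchh was at 73.5, 767, 951 and 235 CPM in SKO 1 to 4, against 1584, 3034, 2989.9 and 2152 CPM in CTR 1 to 4. The highest SKO library was below the lowest CTR library. The means were 507 ± 419 CPM in SKO and 2440 ± 700.2 CPM in CTR (SD, n = 4 each), 4.81-fold lower (log2 -2.27, SE 0.63, adjusted p = 0.0275). Per kilobase, Tchh ranked 25th of the members in SKO and 7th in CTR. Its call was lost with the Xist term (log2 -0.08, adjusted p = 0.969), in a robust fit (adjusted p = 0.0916) and without SKO 4, CTR 2 or CTR 3 (adjusted p = 0.0668, 0.0598 and 0.0617).

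Tchhl1, the trichohyalin-like gene beside it, was at 4.67, 19.5, 35.5 and 6.35 CPM in SKO 1 to 4, against 99.7, 162, 154 and 118 CPM in CTR 1 to 4. Its groups were further apart, 16.5 ± 14.3 CPM against 134 ± 29.6 CPM (SD, n = 4 each), 8.07-fold lower (log2 -3.01, SE 0.53, adjusted p = 0.00404). With SKO 3 left out, this widened to -3.71. The order of the SKO libraries was the same in both genes, SKO 1, SKO 4, SKO 2 and SKO 3 from low to high.

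Beside these, 23 of 30 tested genes of a hair shaft and inner root sheath list were lower in SKO and 0 were higher, with a median log2 fold change of -2.14. Over all tested genes, 12.2% were called lower. The list's summed level was 13046, 26799, 45373 and 54273 CPM in SKO 1 to 4, against 49713 to 65656 CPM in CTR, and no gene of the list was at 0 in all libraries. The list also holds Krt84 and Krt36, keratins known from the scales of tail epidermis. Krt33b, a keratin of the hair cortex, was at 9.38, 65.5, 124 and 13.7 CPM in SKO 1 to 4, against 335, 646, 592 and 398 CPM in CTR 1 to 4 (log2 -3.21, adjusted p = 0.0105). Its SKO libraries had the same order as those of Tchh, whereas the summed level of the list was highest in SKO 4. Krt34, Krt81 and Gprc5d had log2 fold changes of -3.02, -3.01 and -2.93. The part of hair follicle content in the Tchh and Tchhl1 results was not tested.

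Of the 12 other tested genes in the stretch, the 7 that were not called had log2 fold changes of -0.07 (2310050C09Rik) to 0.48 (2210017I01Rik), and Gm38119 rose by 1.26 on the log2 scale (adjusted p = 0.00523). Gm35439 and Gm5278 fell at low levels, with log2 fold changes of -0.99 and -2.06. Crnn, which codes for cornulin, another fused S100-type protein of the locus, was at 8.02, 28.8, 46.5 and 11.9 CPM in SKO 1 to 4, against 85.2, 177, 140 and 111 CPM in CTR 1 to 4. It was 5.38-fold lower (log2 -2.43, SE 0.47, adjusted p = 0.00623), with SKO libraries in the order seen for Tchh. Prr9, a small proline-rich gene between Lor and the Sprr2 genes, was at 124, 269, 394.5 and 314 CPM in SKO 1 to 4, against 874, 1142, 1136 and 1036 CPM in CTR 1 to 4, 3.80-fold lower (log2 -1.93, SE 0.28, adjusted p = 0.00183). Both had groups that did not overlap. They stand outside the symbol rule and were chosen for detail after their values were seen.

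In a list of 26 cornified envelope scaffold and crosslinking genes, 6 rose, 2 fell and 18 were not called, with a median log2 fold change of 0.11. These 8 calls of 26 stand beside 23.7% called in either direction over all tested genes. By direction, 23.1% of the list rose, against 11.5% of all tested genes, and 2 of 26 fell, against 12.2%. Tgm5, a transglutaminase that crosslinks envelope proteins, rose by 0.93 on the log2 scale (adjusted p = 0.00102). Asprv1, a protease that processes profilaggrin, was at 1712, 1109, 1697 and 1231 CPM in SKO 1 to 4, against 673, 757, 875 and 879 CPM in CTR 1 to 4 (log2 0.85, adjusted p = 0.00459). Its groups did not overlap, whereas those of its substrate gene Flg did. Padi1 and Padi4, enzymes that convert arginine to citrulline in proteins, fell, with log2 fold changes of -2.34 and -0.89 (adjusted p = 0.00695 and 0.0322). Padi1 had the same order of SKO libraries as Tchh, at 0.996, 6.32, 8.61 and 2.49 CPM in SKO 1 to 4, against 16.4, 25.8, 25.7 and 25.7 CPM in CTR 1 to 4.

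Of 28 listed regulators of transcription in the complex, 2 rose, 4 fell and 22 were not called, with a median log2 fold change of -0.12. These 6 calls of 28 do not exceed the 23.7% called over all tested genes. Maf, a factor that drives differentiation genes in human keratinocytes, fell by 0.84 on the log2 scale (adjusted p = 0.00203). Gata3, a factor for barrier formation, fell by 0.53 (adjusted p = 0.00592), and Ahr, a ligand-activated receptor, rose by 0.40 (adjusted p = 0.00312). These 3 changes were smaller than those of the Lce3 genes.

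The S100 genes that flank the complex included differences wider than those of the members. Of 12 tested, 2 rose, 2 fell and 8 were not called, against 23.7% called in either direction over all tested genes. S100a8, a subunit of calprotectin, was at 12.8, 100.4, 46.1 and 164 CPM in SKO 1 to 4, against 3.12, 3.61, 9.59 and 3.48 CPM in CTR 1 to 4 (log2 4.06, adjusted p = 0.0040). S100a9, its partner, rose by 4.43 on the log2 scale (adjusted p = 0.00483). Both were lowest in SKO 1 and highest in SKO 4. Of 8 listed neutrophil markers only 2 passed the filter, Mpo and Cxcr2, and neither was called (adjusted p = 0.0604 and 0.368). The part of neutrophils in the S100a8 and S100a9 results was not tested. S100a3, known from the hair cuticle, and S100a7a fell, with log2 fold changes of -2.06 and -2.11 (adjusted p = 0.0194 and 0.00766).

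Markers of the spinous and basal keratinocyte layers were counted at high summed levels in every library. The spinous layer keratins Krt1 and Krt10, partners in the filaments of differentiating cells, rose, with log2 fold changes of 2.88 and 0.99 (adjusted p = 9.43e-05 and 0.000486). Their summed level was 39579 to 56528 CPM in SKO and 17164 to 19535 CPM in CTR. Of 6 basal keratinocyte markers, 4 fell and 0 rose, against 12.2% of all tested genes called lower. On the log2 scale, Itgb4 fell by 0.89, Krt15 by 0.54, Col17a1 by 0.45 and Itga6 by 0.36. The basal keratins Krt5 and Krt14 were not called. The summed level of the 6 was 16219 to 16968 CPM in SKO and 17048 to 19179 CPM in CTR. These groups did not overlap.

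Markers of other cells also differed between groups, beside 11.5% of all tested genes called higher and 23.7% called in either direction. Of 7 Langerhans cell markers 6 rose, with a summed level of 363 to 513 CPM in SKO and 258 to 332 CPM in CTR. Of 6 melanocyte markers 4 rose (299 to 519.7 CPM in SKO and 206 to 317 CPM in CTR), as did 3 of 8 sebocyte markers (6632 to 9114 CPM in SKO and 4287 to 5959 CPM in CTR). Of 6 tested T cell markers 3 rose and 1 fell (30.02 to 39.6 CPM in SKO and 23.7 to 37.8 CPM in CTR). The summed levels of the melanocyte and T cell lists overlapped between groups, and those of the Langerhans cell and sebocyte lists did not. None of 4 tested fibroblast markers was called (17.5 to 56.1 CPM in SKO and 33.8 to 52.7 CPM in CTR), nor either tested neutrophil marker (4.71 to 5.16 CPM in SKO and 5.37 to 12.8 CPM in CTR), with Ngp at 0. None of 5 testis genes passed the filter, and Prm2, Tnp1 and Tnp2 were at 0 in all libraries, beside the near-absence of Smcp. The part of these cells in the member results was not tested.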

How the data were processed

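Gene counts were the deposited unit: raw read counts per gene, whole numbers whose sums differ between libraries, not normalized by the authors. Per the submitters' processing notes, the build was GRCm38 and the tools included STAR 2.4.1d, featureCounts 1.4.6, cutadapt 1.7.1, edgeR 3.8.6, Cufflinks 2.1.1, Bowtie2 2.2.4, bedtools 2.17.0 and SAMtools 1.1. Per the labels' protocols, tail skin lay in dispase (10 mg/ml, 5 h, 4 °C) before the epidermis was taken off, and stranded poly-A libraries (1 microgram of RNA each) gave single reads of 75 bp. The annotation release, strand setting and treatment of reads with several matches are not given in the sources used here.

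Identifiers were named from GENCODE M21 (46488 of 46983 found). In R 4.3.3, edgeR 4.0.16 compared 4 SKO with 4 CTR libraries, with no covariate: filterByExpr (10 counts, about 0.518 CPM, in 4 libraries), TMM factors, glmQLFit and glmQLFTest, two-sided, with Benjamini-Hochberg adjustment over all tested genes. Standard errors are the log2 fold change over the root of F. RPKM values divide mean CPM by the length of a gene's merged exons in kilobases. The code was tested on simulated data. Subfamily sums carry no test. The members, lists and groupings were chosen with earlier results of these data known. Values in each library are given for called members, the single genes of the rule and the most abundant member of each Sprr and Lce subfamily. Genes named from the lists are among the up to 4 called genes of each list with the widest change and a mean of 1 CPM or more, or, with fewer than 2 such genes, the most abundant ones. The marker lists of other cells are mostly given as counts and sums, and the result of 1 regulator is not reported here. Alternatives were other scalings and filters, DESeq2 1.42.0, a robust fit, an Xist term, and leaving out each library. Replicate numbers follow sample order and only name libraries. No 2 libraries of a group agreed within sampling noise. Nothing says that the mice came from separate litters, so p-values measure the spread between these mice. Floors of 3 counts cover counting error only.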

Additional observations from a re-analysis of the deposited data

Results flagged for a closer look

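In 8 of 90 groups of 4 libraries, 1 library lay far from the other 3, relative to the group's range, and chance gives about 1 in 20. In SKO 2, Lce1a1 was lowest at 383 CPM, Lce1a2 at 206 CPM, Lce1e at 116 CPM and Lce1k at 40.1 CPM. Flg2 was lowest in SKO 1 at 30.8 CPM. Sprr2g was highest in SKO 4 at 7.04 CPM among the SKO libraries, and in CTR 4 at 3.06 CPM among the CTR libraries. Lce3e was highest in CTR 4 at 0.659 CPM among the CTR libraries.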

How the results depend on the processing

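With the Xist level as a further term, 77 genes were called in place of 3700, 0 members were higher and 0 were lower, and the uncalled log2 fold changes of Sprr2g (-0.20), Sprr1b (-0.089), Lce1g (-0.24) and Flg2 (0.44) changed sign; the cause was not tested. Under the other alternatives the number of members higher was 17 to 20, with 18 of the 21 called members called in all of them in which they were tested; the exceptions were Tchh, Lce1a2 and Lce1l. Leaving out 1 library gave 2589 to 4370 called genes, 17 to 20 members higher and 1 to 3 lower, with 1 lower without CTR 3. It turned the sign of 7 uncalled members, whose log2 fold changes ran from -0.11 to 0.56 for Sprr2a1, -0.030 to 0.37 for Sprr2b, -0.014 to 0.46 for Sprr1b, -0.15 to 0.031 for Sprr1a, -0.053 to 0.11 for Lce1g, -0.093 to 0.20 for Kprp and -0.28 to 0.060 for Lce1m. Lce3b did not pass the filter at 1 CPM. No paired analysis was possible because the labels name no pairs, litters or replicate numbers; SKO and CTR mouse identifiers lie near each other, but nothing says that near identifiers mark a pair. Depth limits Lce3a, Lce3b and Lce3e in CTR, and the untested Lelp1, Sprr2a2, Sprr2c-ps, Sprr3 and Smcp.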
